A study of Mus musculus with 12 samples.

Results

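A set of 35 genes stood lower in mouse CD8+ T cells that had been expanded with all-trans retinoic acid (ATRA) than in cells expanded with solvent, both after exposure to tumour cells and after a further round of stimulation. The set was chosen from 12770 gene symbols that both count tables share, with predicted, clone-named and pseudogene-named symbols left out. A gene entered if its control mean was at least 5 CPM (counts scaled to the library total) in both states. Its log2 difference, the log2 of (ATRA mean + 0.5) over (control mean + 0.5), had to be at most -1.5 in both states, with the highest ATRA library below the lowest control library. Igfbp7 was left out of the set by name. Because the ATRA and control levels chose the genes, their ATRA differences are given as a description and support nothing.

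The cells were OT-I CD8+ T cells, which carry a transgenic receptor for an ovalbumin peptide, and there were 4 groups of 3 bulk RNA libraries. Every group was expanded from spleen with antibodies to CD3e and CD28 plus IL-2, kept for 5 days, placed for 72 h at 1% O2 with GL261 glioma cells that express chicken ovalbumin, and sorted as live CD45.2+ cells. ATRA at 5 ng/mL, or an equal volume of DMSO (CTRL), was present in the expansion and not in the glioma co-culture. The restimulated ATRA and restimulated CTRL groups received anti-CD3e for another 24 h before sorting, and the co-culture ATRA and co-culture CTRL groups did not. The exhaustion setting was thus in vitro. Where bulk RNA is lower, fewer cells of a type cannot be told apart from less RNA per cell. Whether the 3 libraries of a group stem from different mice or cultures is not stated, so each p-value refers to the spread of the libraries alone, which may be technical.

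Total counts were 16288111 to 20115836 per restimulated library and 23558244 to 26111497 per co-culture library. At the lowest total, 3 counts are 0.184 CPM, a floor that covers counting error only. Each state has its own count table and its own set of 3 batches, so a change with state cannot be told apart from a change of table, depth or batch set. CD8 T cell markers summed to 2855 to 4057 CPM over all libraries, and Gfap, Olig2 and Cnn1 of the glioma-like markers were at 0 or not in the table in every group. The summed glioma-like markers were 983 to 1035 CPM in ATRA and 860.3 to 1052 CPM in CTRL cells after restimulation, and 1393 to 1424 CPM in ATRA and 868 to 1018 CPM in CTRL cells after co-culture. Most of these sums is Vim, which T cells also express, with means of 1327 CPM in ATRA and 821.7 CPM in CTRL cells after co-culture. Of the rarer ones, Loxl2 averaged 30.8 CPM in ATRA and 3.78 CPM in CTRL cells, and Fn1 3.41 CPM in ATRA and 0.131 CPM in CTRL cells after co-culture, and Axl 45.9 CPM in ATRA and 109 CPM in CTRL cells. Dendritic cell markers summed to 102 to 104 CPM in ATRA and 78.5 to 116 CPM in CTRL cells after restimulation, and to 158 to 224 CPM in ATRA and 83.3 to 98.4 CPM in CTRL cells after co-culture, and the part of other cells in the results was not tested. ATRA co-culture replicate 3 stood apart from its group, with correlations of log CPM of 0.954 and 0.968 to replicates 1 and 2, which correlated at 0.994 with each other. CTRL co-culture replicate 1 did so less, with 0.984 and 0.986 to replicates 2 and 3, which correlated at 0.996. A fixed list of 37 regulators that T cell receptor signals induce had 21 members higher and 8 lower in restimulated than in co-culture ATRA cells (median log2 fold change 1.02), whereas CTRL cells had 0 higher (also 0 at an unadjusted p under 0.05) and 31 lower (median -1.52). These counts are from edgeR's quasi-likelihood test at a Benjamini-Hochberg adjusted p under 0.05. Of all 12364 tested genes, 29.8% were higher and 31.5% lower in restimulated than in co-culture ATRA cells. In CTRL cells 15.9% of all tested genes were higher and 16.6% lower. A list of cytokines and chemokines had 18 of 29 tested genes higher and 6 lower in restimulated than in co-culture ATRA cells, whereas CTRL cells had 0 higher (also 0 at an unadjusted p under 0.05) and 17 lower. The libraries labelled restimulated CTRL thus did not show higher levels of these genes than those labelled co-culture CTRL. Anti-CD3e is known to raise activation genes, but the co-culture cells had themselves been with glioma cells that express ovalbumin. The cause was not tested. Whether the state labels of the CTRL libraries hold cannot be told from the files. CTRL groups are therefore named here as labelled, and every CTRL change with state and the ATRA difference of either state depends on those labels.

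Retinoic acid is made from vitamin A and binds nuclear receptors that switch transcription of their target genes; in T cells it is best known for inducing receptors that guide cells to the gut. The 35 genes fall into roles that have no single pathway in common. They include receptor chains for the alarmin IL-33 and for IL-18, cytokines of the interleukin 1 family that act on activated lymphocytes through the adaptor MyD88. Others encode adhesion receptors, fatty acid desaturases and a sterol pathway enzyme, proteins of the centromere and of DNA repair, and proteins of calcium, cyclic GMP and cytoskeletal signalling.

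Over the 35 genes, the median log2 difference was -2.39 after restimulation (range -5.69 to -1.51) and -1.89 after co-culture (range -6.77 to -1.502). The median over all 8802 shared genes that met the CTRL floor was -0.04 after restimulation and -0.13 after co-culture. The median ATRA level was 16.8% of the CTRL level after restimulation and 26.4% after co-culture. Of the set, 9 genes after restimulation and 8 after co-culture were at or below -3. In edgeR's quasi-likelihood test, 35 of 35 were called lower in restimulated ATRA cells, where 30.8% of all 12783 tested genes were, and 30 of 35 in co-culture ATRA cells, where 15.5% of 12111 were. The shares of all tested genes called higher in ATRA cells, against which the gene lists below are also read, were 31.8% after restimulation and 18.1% after co-culture. Libraries that do not overlap, with ATRA below CTRL in both states, occurred in 11.3% of all 12770 shared genes and in 15.2% of the 8802 at the floor. The rule used these contrasts, so nothing is read from the counts.

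**Figure D1:**
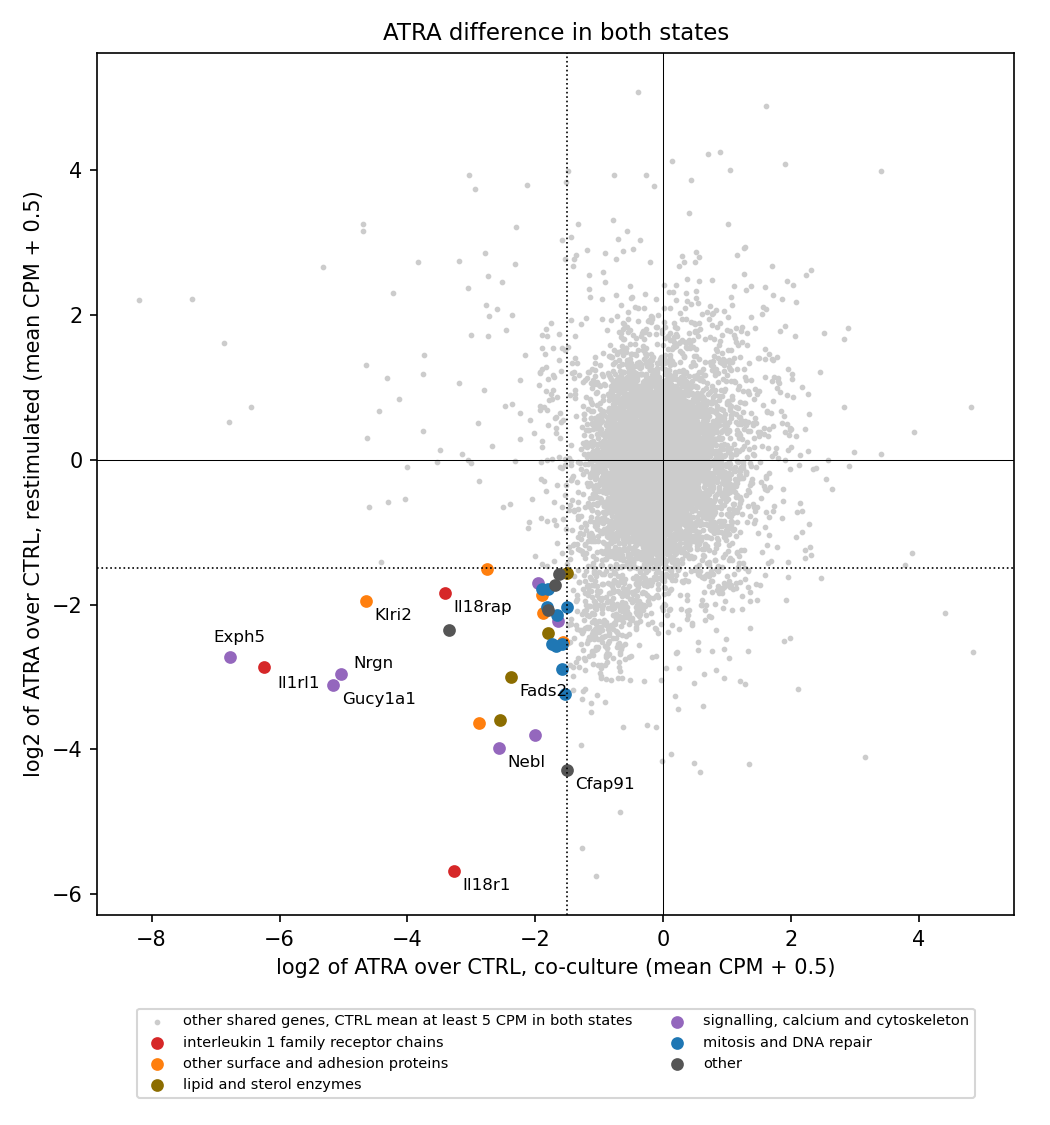
Log2 difference of ATRA over CTRL (mean CPM + 0.5) after co-culture (x axis) against that after restimulation (y axis), 1 point for each shared gene at or above the CTRL floor of 5 CPM. The 35 coloured genes lie by their selection in the lower left corner, bounded by the dotted lines at -1.5; of these 35, Exph5 lies farthest left at -6.77 and Il18r1 lowest at -5.69.

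The differences were steeper after restimulation for 22 of the 35 genes and steeper after co-culture for 13. For 14 genes the log2 differences of the states were more than 1 apart, 7 in each direction. Within batches, the ATRA and CTRL libraries share a replicate number. All 35 genes were lower in ATRA in all 3 batches of both states, which the no-overlap criterion of the rule fixed in advance. After restimulation 30 genes were at or below -1.5 in each batch, with batch medians of -2.42, -2.38 and -2.20. After co-culture 13 genes were, with batch medians of -1.67, -1.81 and -3.20, the last of them from the batch of ATRA replicate 3. That library held the lowest co-culture ATRA value for 31 of the 35 genes; for Fads2, Scd1, H2bc24 and Mt3 it held the highest. Without it, 21 genes meet the rule, and the 14 that leave include Aunip, Cdc25c, Cenpi, Cenpu, Cip2a, Fancb, Gen1, Pif1 and Ska1, the 9 that act in mitosis or DNA repair, and Cfap91, Gemin6, Idi1 and Lrfn1. Without ATRA co-culture replicate 1, which held the highest value for 25 genes, 93 genes meet the rule, and without ATRA co-culture replicate 2, 56 do.

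**Figure D2:**
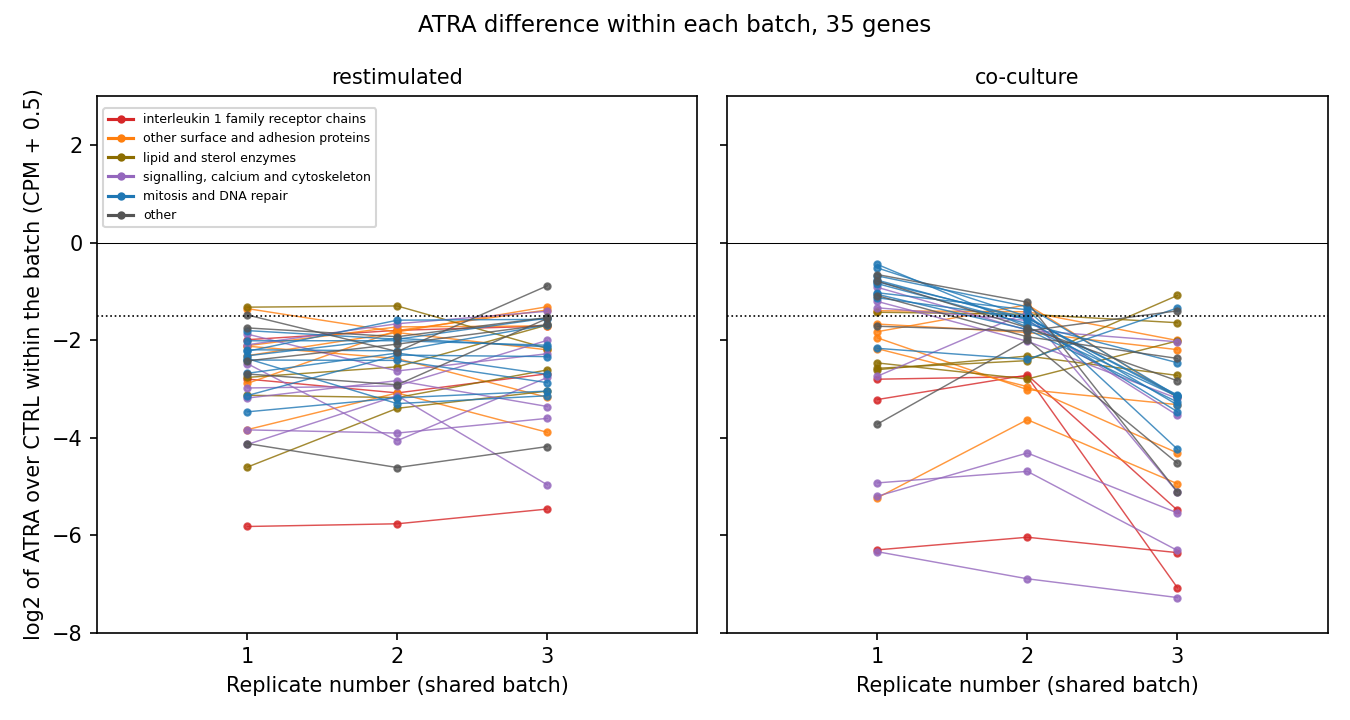
Log2 difference of ATRA over CTRL (CPM + 0.5) for each of the 35 genes within each batch, restimulated libraries on the left and co-culture libraries on the right; lines join the points of 1 gene, colours give its role and the dotted line is -1.5. All points are below 0 because the rule allows no overlap. The co-culture points of batch 3 reach lower (median -3.20) than those of batches 1 and 2 (medians -1.67 and -1.81).

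Genes close to the threshold show how sharp the limit of the set is. Just inside were Cfap91, with log2 differences of -4.29 after restimulation and -1.502 after co-culture, Ska1 with -2.04 and -1.51, Siglecf with -1.51 and -2.75, Idi1 with -1.56 and -1.51, and Aunip with -3.24 and -1.53, in the same order. Just outside, with all other criteria met, were E2f8 with -2.28 and -1.495, Kif20a with -2.53 and -1.49, Galm with -1.47 and -1.81, Depdc1a with -2.52 and -1.45, and Kif2c with -2.84 and -1.45. E2f8, Kif20a, Depdc1a and Kif2c act in the cell cycle or mitosis, as do Ska1 and Aunip inside the limit.

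**Figure D3:**
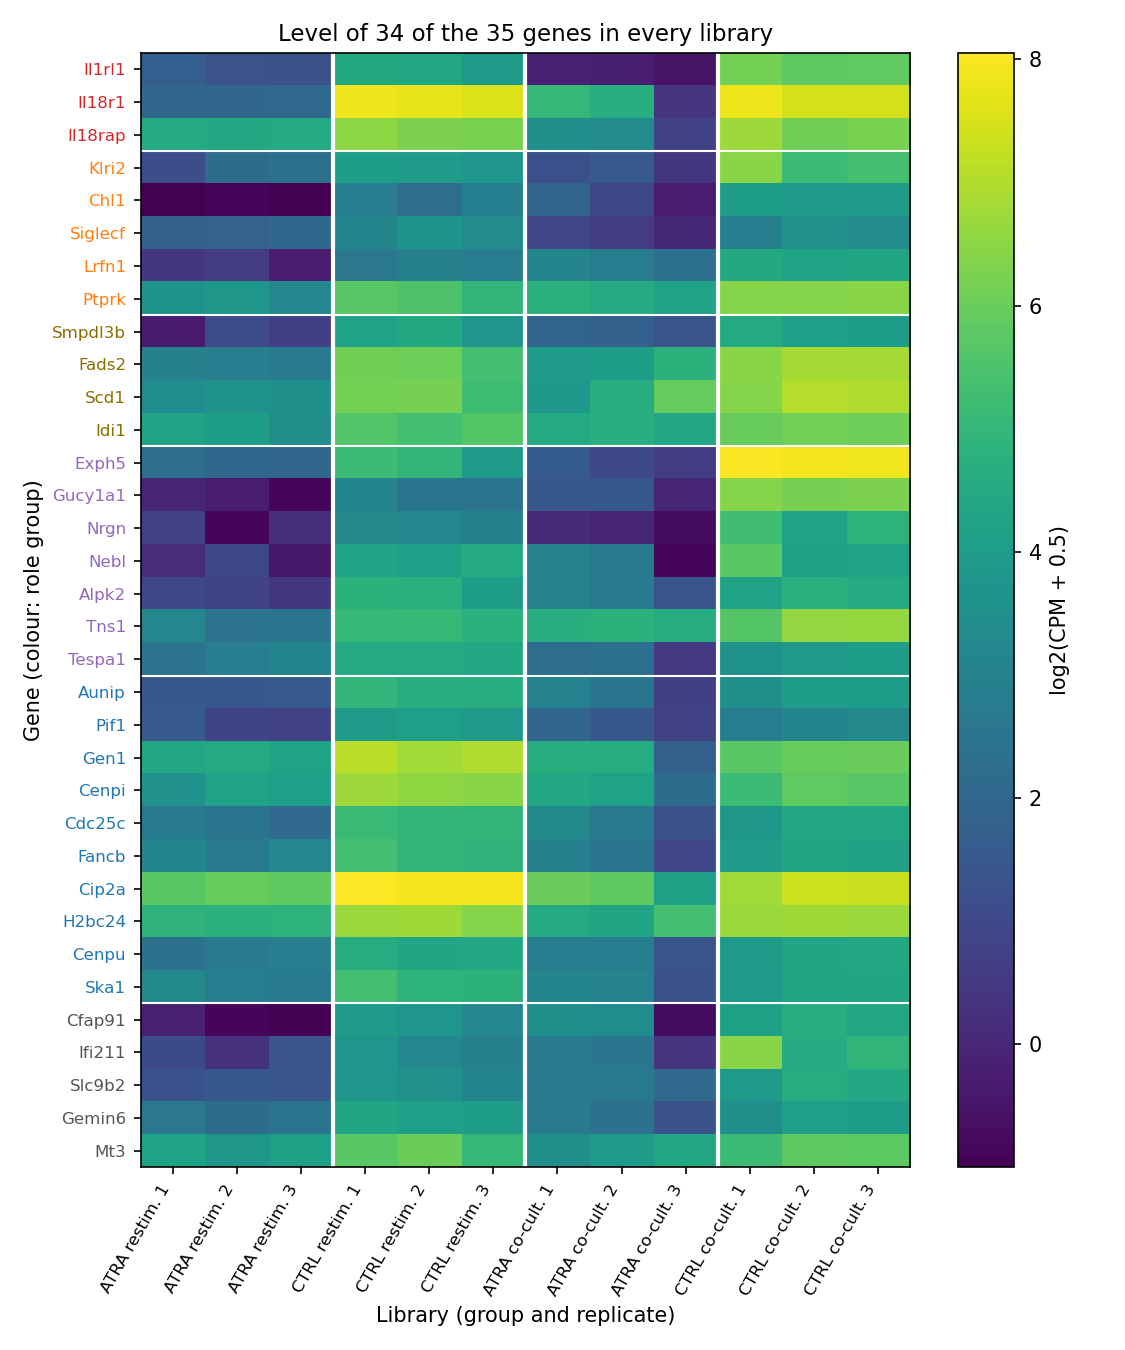
Level of 34 of the 35 genes as log2(CPM + 0.5), with genes in rows grouped by role (colour of the name) and the 12 libraries in columns, ATRA left of CTRL within each state. By the rule, ATRA columns are darker than their CTRL columns in every row. ATRA co-culture replicate 3 is darkest for most mitosis genes, for example Cip2a at 17.6 CPM against 63.5 and 55.9 CPM in replicates 1 and 2.

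Among the ligand-binding proteins, 3 chains of the interleukin 1 receptor family were in the set: Il1rl1 (also called ST2), the receptor for IL-33, Il18r1, the chain that binds IL-18, and Il18rap, the chain that completes the IL-18 receptor for signalling. Il1rl1 had 2.73, 1.98 and 1.89 CPM in ATRA libraries and 21.97, 20.5 and 14.9 CPM in CTRL libraries after restimulation. After co-culture Il1rl1 had 0.398, 0.340 and 0.192 CPM in ATRA libraries and 70.4, 54.9 and 56.3 CPM in CTRL libraries. The co-culture ATRA libraries were thus close to the floor, with 10, 8 and 5 counts, while every CTRL library held at least 54.9 CPM. The groups did not overlap in either state, as the rule requires. The log2 difference was -2.86 after restimulation and -6.24 after co-culture. Il18r1 had 3.51, 3.49 and 3.78 CPM in ATRA libraries and 227, 217 and 189 CPM in CTRL libraries after restimulation, where it had the lowest log2 difference of the set at -5.69. After co-culture Il18r1 had 31.8, 25.7 and 0.807 CPM in ATRA libraries and 225, 175 and 176 CPM in CTRL libraries, a log2 difference of -3.27. The restimulated ATRA libraries were close together, whereas ATRA co-culture replicate 3 held far less Il18r1 than the other co-culture ATRA libraries. Il18rap had 22.6, 21.7 and 22.6 CPM in ATRA libraries and 91.2, 76.8 and 74.97 CPM in CTRL libraries after restimulation. After co-culture Il18rap had 10.8, 9.81 and 1.19 CPM in ATRA libraries and 105, 67.2 and 75.4 CPM in CTRL libraries. The log2 difference was -1.84 after restimulation and -3.42 after co-culture, and replicate 3 was again the low library after co-culture.

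The genes of these chains follow each other on chromosome 1 in the RefSeq order of genes (assembly GRCm38.p6): Map4k4, Il1r2, Il1r1, Il1rl2, Il1rl1, Il18r1, Il18rap, Slc9a4. Of the neighbours, Il1r2, a decoy receptor for interleukin 1, averaged 103 CPM in ATRA and 34.1 CPM in CTRL cells after restimulation, and 51.4 CPM in ATRA and 51.7 CPM in CTRL cells after co-culture. Map4k4, a kinase gene at the far side of Il1r2, averaged 176 CPM in ATRA and 208 CPM in CTRL cells after restimulation, and 183 CPM in ATRA and 199.9 CPM in CTRL cells after co-culture. Il1rl2 averaged 5.98 CPM in ATRA and 3.17 CPM in CTRL cells after restimulation, and 1.34 CPM in ATRA and 3.49 CPM in CTRL cells after co-culture. The log2 differences of at most -1.5 in both states were therefore those of the 3 adjoining receptor genes, and Il1r2, Map4k4 and Il1rl2 were not at or below -1.5 in both.

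Windows around the transcription start of the 3 neighbouring receptor genes are shown because these genes stood low together; each has 300 bases, most of them upstream. The sequences are from RefSeq, build GRCm38.p6, and a window was at hand for 24 of the 35 genes. Capitals mark any match, on either strand, to the retinoic acid response half-site (AGGTCA), the T-box site (TCACACC), the AP-1 site (TGANTCA), the CCAAT box (CCAAT), the E2F site (TTCCCGC), the CHR element of mitotic genes (TTTGAA) or the sterol response element. The windows are chr1:40439379-40439678 (+ strand) for Il1rl1, the second of its 2 listed starts, chr1:40465302-40465601 (+ strand) for Il18r1, the first of its 3, and chr1:40515112-40515411 (+ strand) for Il18rap. For a gene with several listed starts, the window that matched the most kinds of motif was shown. The matches in the windows of Il1rl1 and Il18r1 are thus partly a product of that choice.
Il1rl1: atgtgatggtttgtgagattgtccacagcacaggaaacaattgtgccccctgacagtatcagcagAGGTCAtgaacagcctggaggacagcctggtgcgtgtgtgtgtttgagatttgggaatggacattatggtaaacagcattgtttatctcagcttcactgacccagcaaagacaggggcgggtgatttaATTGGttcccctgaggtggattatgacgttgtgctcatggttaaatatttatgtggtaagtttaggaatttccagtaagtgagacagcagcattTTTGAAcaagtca
Il18r1: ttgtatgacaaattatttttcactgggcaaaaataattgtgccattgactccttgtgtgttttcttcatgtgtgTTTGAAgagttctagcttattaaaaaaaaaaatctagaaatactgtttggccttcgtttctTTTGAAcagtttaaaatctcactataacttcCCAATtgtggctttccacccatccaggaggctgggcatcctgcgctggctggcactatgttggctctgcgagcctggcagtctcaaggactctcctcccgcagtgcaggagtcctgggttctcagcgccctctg
Il18rap: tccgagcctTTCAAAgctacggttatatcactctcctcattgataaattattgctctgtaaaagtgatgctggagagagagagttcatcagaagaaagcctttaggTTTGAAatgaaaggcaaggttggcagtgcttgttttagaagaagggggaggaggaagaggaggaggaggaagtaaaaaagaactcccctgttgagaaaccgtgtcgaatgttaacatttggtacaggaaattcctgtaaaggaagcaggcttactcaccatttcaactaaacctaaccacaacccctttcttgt

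The shown window of Il1rl1 holds the half-site, the CCAAT box and the CHR letters, that of Il18r1 holds the CCAAT box and the CHR letters, and that of Il18rap holds the CHR letters. Over the set, the half-site occurred in windows of 3 of 24 genes (Il1rl1, Nebl and Aunip), against 18.1% of all 27025 genes with a window, and the CHR letters in 5 of 24 (Exph5, Il1rl1, Il18r1, Nebl and Il18rap), against 20.2%. The CCAAT box was found in 11 of 24, against 41.1%, and the AP-1 site in 1 of 24 (Nebl), against 8.97%. The T-box site and the sterol response element were in none of the 24, against 4.60% and 0.0999% of all genes. These matches describe letters and no binding was measured.

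In a list of 20 genes of interleukin 1 receptors, ligands and adaptors, drawn up after the set was known, restimulated ATRA cells had 7 of 17 tested genes higher and 6 lower (median log2 fold change 0.14), and co-culture ATRA cells had 1 higher and 7 lower (median -0.33), by edgeR's quasi-likelihood test. Of all tested genes, 31.8% were higher and 30.8% lower after restimulation, and 18.1% higher and 15.5% lower after co-culture. Genes of the set that stand in this list were chosen for lower levels in both states. Its lower calls thus restate that choice in part, and nothing is read from them. Il1a, an interleukin 1 cytokine, had a log2 fold change of 9.64 after restimulation (adjusted p = 6.42e-07) and -6.27 after co-culture (adjusted p = 0.00374, edgeR). Irak2, a kinase downstream of MyD88, had 1.58 (adjusted p = 6.94e-07) and 1.74 (adjusted p = 0.0211, edgeR) in the same order, and Il33, the ligand of Il1rl1, had 3.90 (adjusted p = 8.51e-07) and -0.92 (adjusted p = 0.137). In the list of 37 cytokine receptors and signalling genes, which holds all 3 chains, 17 of 35 tested were called higher and 9 lower after restimulation (median 0.32), and 10 higher and 4 lower after co-culture (median 0.46).

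**Figure D4:**
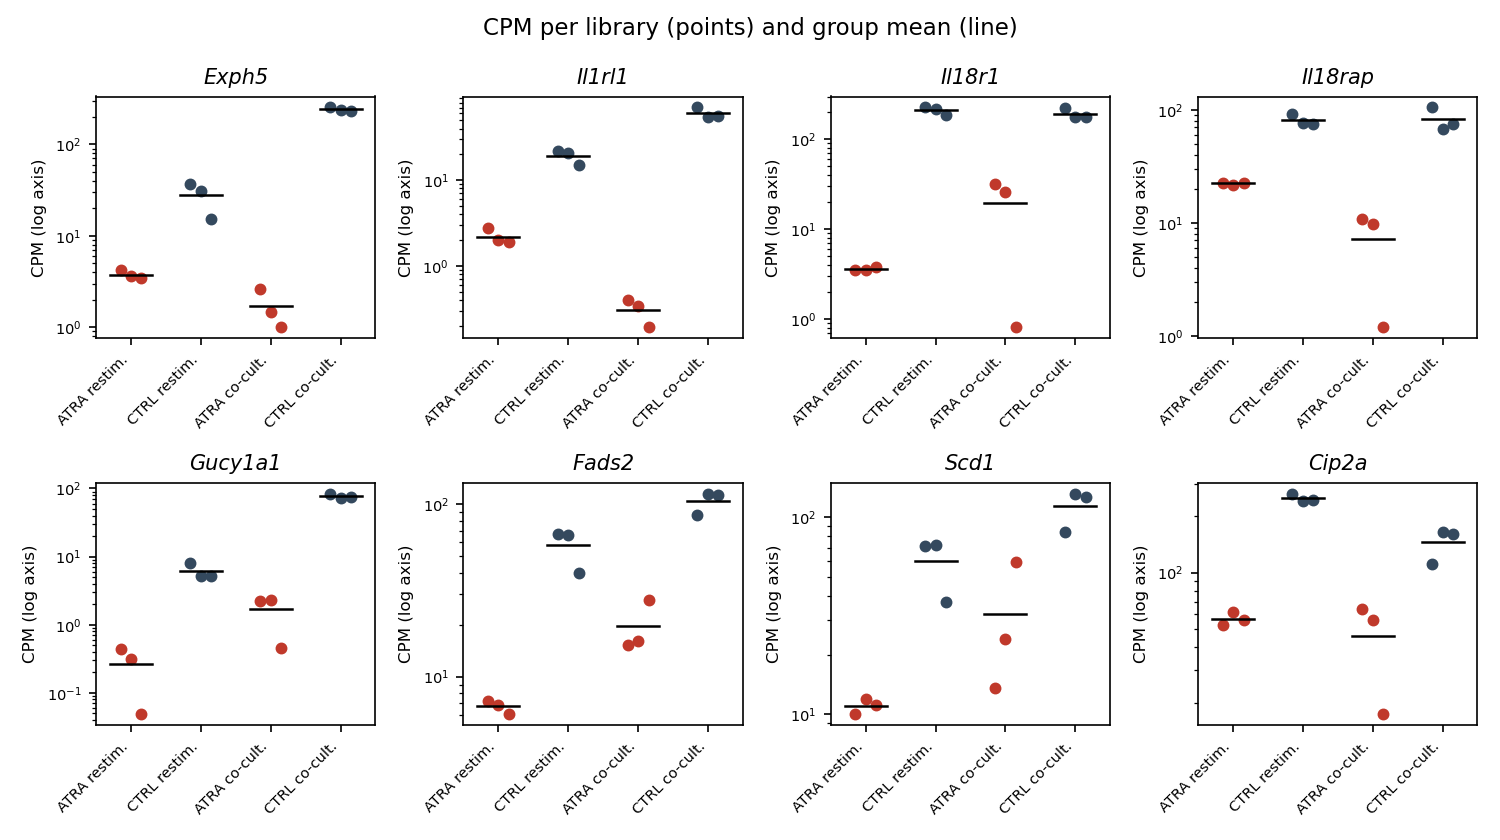
CPM of 8 genes in each library on log axes, ATRA (red) left of CTRL (dark blue) within each state; points are libraries 1 to 3 from left to right and lines are group means. By the rule, ATRA points lie below all CTRL points of their state in each panel. In the panels of Il1rl1 and Exph5 the restimulated ATRA mean is above, and the restimulated CTRL mean below, the co-culture mean of the same treatment.

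The other surface proteins of the set included Klri2, a killer lectin-like receptor of natural killer and T cells, Siglecf, a sialic acid-binding lectin best known from eosinophils, Chl1, an adhesion molecule of the L1 family of neurons, Lrfn1, an adhesion molecule of synapses, and Ptprk, a receptor-type tyrosine phosphatase. Klri2 had 1.78, 4.07 and 4.57 CPM in ATRA libraries and 16.4, 15.4 and 12.7 CPM in CTRL libraries after restimulation. After co-culture Klri2 had 1.79, 2.46 and 0.845 CPM in ATRA libraries and 85.7, 36.2 and 40.97 CPM in CTRL libraries, with CTRL replicate 1 the highest by far. The log2 difference of Klri2 was -1.95 after restimulation and -4.64 after co-culture. Reads shared with its close relative Klri1 could be divided between them in counting, and the sources used do not say how this was done. The list of 8 natural killer cell markers, in which Klri2 stands, summed to 41.9 to 51.6 CPM in ATRA and 141 to 171 CPM in CTRL cells after restimulation, and to 28.5 to 143 CPM in ATRA and 266 to 391.9 CPM in CTRL cells after co-culture. Most of the CTRL sums is Klrk1, with means of 16.9 CPM in ATRA and 121 CPM in CTRL cells after restimulation, and 85.8 CPM and 222 CPM after co-culture. Klri2, chosen as lower, is counted in the sums. Eomes (21.3 CPM in ATRA and 14.3 CPM in CTRL cells), Klra4 and Klrb1c were higher in ATRA cells after restimulation. After co-culture Eomes (9.05 CPM in ATRA and 27.8 CPM in CTRL cells) and Klra4 were lower in ATRA cells. Klrb1c and Klra8 were higher there, at low levels. Klre1 was lower in ATRA cells of both states, with 1.17 against 3.64 CPM after restimulation and 0.583 against 10.1 CPM after co-culture. The defining member of the list, Ncr1, was at 0 or not in the table in all groups but restimulated CTRL cells. The part of other cells in the level of Klri2 was not tested.

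Chl1 had 0, 0.0521 and 0 CPM in ATRA libraries and 6.64, 4.17 and 6.92 CPM in CTRL libraries after restimulation, which is 0, 1 and 0 counts in the ATRA libraries. Summed over libraries, its restimulated ATRA level was 0.292% of the CTRL level (95% interval for counting error 0.0074% to 1.64%, exact binomial). After co-culture Chl1 had 3.26, 1.44 and 0.307 CPM in ATRA libraries and 16.5, 14.6 and 15.6 CPM in CTRL libraries. Chl1 was thus under the floor of 3 counts in restimulated ATRA cells and clearly counted in co-culture ATRA cells. Siglecf averaged 3.24 ± 0.340 CPM in ATRA cells and 10.1 ± 1.91 CPM in CTRL cells after restimulation (SD, n = 3), and 0.969 ± 0.427 CPM in ATRA cells and 9.38 ± 2.35 CPM in CTRL cells after co-culture. Lrfn1 averaged 0.727 ± 0.374 CPM in ATRA cells and 6.50 ± 0.858 CPM in CTRL cells after restimulation, and 6.43 ± 1.84 CPM in ATRA cells and 20.1 ± 1.82 CPM in CTRL cells after co-culture. Ptprk averaged 11.3 ± 2.29 CPM in ATRA cells and 42.6 ± 11.2 CPM in CTRL cells after restimulation, and 22.6 ± 3.78 CPM in ATRA cells and 85.1 ± 1.45 CPM in CTRL cells after co-culture. Of these 3 genes, Siglecf had log2 differences of -1.51 after restimulation and -2.75 after co-culture and Lrfn1 had -2.51 after restimulation and -1.57 after co-culture.

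Of a list of 43 adhesion, integrin and trafficking genes, restimulated ATRA cells had 13 of 38 tested higher and 15 lower (median log2 fold change -0.02), and co-culture ATRA cells 15 of 36 higher and 7 lower (median 0.79, edgeR). The counts after restimulation were near the shares of all tested genes (31.8% higher and 30.8% lower), so nothing particular to the list is read from them; after co-culture 18.1% of all tested genes were higher and 15.5% lower. The smallest p after restimulation were those of Ccr9, the gut homing receptor, Itga4, an integrin chain, and S1pr1, the receptor for lymph node exit. Ccr9 had a log2 fold change of 13.87 after restimulation (adjusted p = 8.56e-11, edgeR), Itga4 had -2.05 (adjusted p = 3.29e-10, edgeR) and S1pr1 had -3.23 (adjusted p = 4.02e-10, edgeR). After co-culture they had 13.02 (adjusted p = 0.000181), 1.33 (adjusted p = 0.00242) and 2.24 (adjusted p = 0.000743) in the same order, so Itga4 and S1pr1 were called in opposite directions in the 2 states. Of 27 cytotoxic and killer lectin-like genes, the list with Klri2, 12 of 25 tested were called higher and 6 lower after restimulation (median 0.60), and 4 higher and 12 lower after co-culture (median -1.17, edgeR).

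The lipid enzymes of the set were Fads2, a desaturase on the way to long polyunsaturated fatty acids, Scd1, the desaturase that makes monounsaturated ones, Idi1, an isomerase on the way to cholesterol and other isoprenoids, and Smpdl3b, a membrane-anchored phosphodiesterase related to acid sphingomyelinase. Fads2 had 7.24, 6.88 and 6.11 CPM in ATRA libraries and 67.3, 66.2 and 39.9 CPM in CTRL libraries after restimulation, the ATRA libraries lying close together. After co-culture Fads2 had 15.2, 16.1 and 27.6 CPM in ATRA libraries and 86.2, 115 and 113 CPM in CTRL libraries, with replicate 3 the highest ATRA library. Scd1 had 10.1, 11.9 and 11.1 CPM in ATRA libraries and 71.4, 72.1 and 37.00 CPM in CTRL libraries after restimulation. After co-culture Scd1 had 13.6, 24.2 and 59.4 CPM in ATRA libraries and 83.9, 132 and 126 CPM in CTRL libraries. The spread of Scd1 among co-culture ATRA libraries was wide, and replicate 3 came close to the lowest CTRL library without reaching it. Idi1 had 18.9, 16.2 and 10.5 CPM in ATRA libraries and 48.1, 40.6 and 49.02 CPM in CTRL libraries after restimulation. After co-culture Idi1 had 22.5, 24.9 and 20.98 CPM in ATRA libraries and 61.5, 69.8 and 66.5 CPM in CTRL libraries, with both groups narrow. Smpdl3b had 0.279, 1.67 and 1.09 CPM in ATRA libraries and 18.4, 22.3 and 12.7 CPM in CTRL libraries after restimulation, and the ATRA value of replicate 1 rests on 5 counts. After co-culture Smpdl3b had 3.30, 2.93 and 2.04 CPM in ATRA libraries and 22.6, 16.7 and 16.3 CPM in CTRL libraries. The log2 differences after restimulation were -3.60 for Smpdl3b, -3.01 for Fads2, -2.39 for Scd1 and -1.56 for Idi1, and after co-culture -2.55, -2.39, -1.80 and -1.51 in the same order. Scd1 reads could in part come from the related Scd2, since how shared reads were counted is not given in the sources used.

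These enzymes stood among others that were lower too. Of 28 sterol and fatty acid synthesis genes, a list that holds Fads2, Scd1 and Idi1, 20 of 27 tested were called lower and 2 higher in restimulated ATRA cells (median log2 fold change -1.01), and 16 lower and 0 higher in co-culture ATRA cells (median -0.64; 19 lower and 0 higher at an unadjusted p under 0.05), by edgeR's quasi-likelihood test. Of all tested genes, 30.8% were lower and 31.8% higher after restimulation, and 15.5% lower and 18.1% higher after co-culture. The medians of all tested genes in these fits were 0.02 after restimulation and 0.01 after co-culture. Fads1, the desaturase that acts after Fads2, had a log2 fold change of -2.31 after restimulation (adjusted p = 5.95e-08) and -1.40 after co-culture (adjusted p = 0.00531, edgeR). Fads1 fell short of the set's threshold after co-culture.

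The signalling and cytoskeletal genes had a median log2 difference of -2.96 after restimulation and -2.56 after co-culture, and they include Exph5, which had the steepest co-culture difference of the set (-6.77). Exph5 encodes a Rab27 effector of vesicle transport, Gucy1a1 a subunit of the nitric oxide receptor guanylate cyclase, Nrgn (neurogranin) a calmodulin-binding protein of neurons, Nebl (nebulette) an actin-binding protein known from heart muscle, Alpk2 an alpha-kinase, Tns1 (tensin) a focal adhesion protein, and Tespa1 a protein of T cell receptor signalling in thymocytes. Exph5 had 4.18, 3.60 and 3.48 CPM in ATRA libraries and 36.4, 30.9 and 15.4 CPM in CTRL libraries after restimulation. After co-culture Exph5 had 2.62, 1.49 and 0.999 CPM in ATRA libraries and 253, 236 and 233 CPM in CTRL libraries, and its ATRA mean was 0.708% of the CTRL mean, against 13.6% after restimulation. The CTRL level of Exph5 was far lower in the restimulated libraries, and the ATRA level remained at 0.999 to 4.18 CPM in all 6 libraries. Gucy1a1 had 0.446, 0.313 and 0.0497 CPM in ATRA libraries and 8.12, 5.28 and 5.15 CPM in CTRL libraries after restimulation. After co-culture Gucy1a1 had 2.27, 2.33 and 0.461 CPM in ATRA libraries and 83.8, 72.8 and 76.02 CPM in CTRL libraries. The log2 difference was -3.12 after restimulation and -5.16 after co-culture, and 1 count was seen in restimulated ATRA replicate 3.

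Nrgn had 1.23, 0.0521 and 0.646 CPM in ATRA libraries and 9.14, 8.72 and 7.29 CPM in CTRL libraries after restimulation. After co-culture Nrgn had 0.557, 0.467 and 0.115 CPM in ATRA libraries and 38.4, 18.7 and 28.2 CPM in CTRL libraries, with 14, 11 and 3 counts behind the ATRA values. Nrgn was therefore near the floor in ATRA libraries of both states, and the groups did not overlap, as the rule requires. Nebl had 0.613, 1.46 and 0.249 CPM in ATRA libraries and 19.1, 16.8 and 22.95 CPM in CTRL libraries after restimulation. After co-culture Nebl had 7.48, 6.28 and 0.0384 CPM in ATRA libraries and 52.8, 17.7 and 18.2 CPM in CTRL libraries, where CTRL replicate 1 was the high library and ATRA replicate 3 the low one with 1 count. Alpk2 had 1.45, 1.30 and 0.895 CPM in ATRA libraries and 27.4, 26.5 and 16.5 CPM in CTRL libraries after restimulation. After co-culture Alpk2 had 7.48, 6.03 and 2.07 CPM in ATRA libraries and 17.9, 26.02 and 23.1 CPM in CTRL libraries, and CTRL libraries of the states overlapped. The log2 differences after restimulation and after co-culture were -2.96 and -5.04 for Nrgn, -3.98 and -2.56 for Nebl, and -3.80 and -2.004 for Alpk2. Without CTRL co-culture replicate 1, the fitted log2 fold change of Nebl after co-culture was -1.90, against -2.69 with it (edgeR). Tns1 averaged 6.20 ± 2.07 CPM in ATRA cells and 30.8 ± 3.54 CPM in CTRL cells after restimulation (SD, n = 3), and 25.6 ± 1.93 CPM in ATRA cells and 81.2 ± 27.7 CPM in CTRL cells after co-culture. Tespa1 averaged 6.55 ± 1.49 CPM in ATRA cells and 22.4 ± 0.541 CPM in CTRL cells after restimulation, and 3.24 ± 2.00 CPM in ATRA cells and 14.1 ± 2.15 CPM in CTRL cells after co-culture. Tns1 had its highest level in co-culture CTRL cells and Tespa1 in restimulated CTRL cells.

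Gucy1b1, the partner subunit of Gucy1a1 in the soluble guanylate cyclase, had a log2 fold change of -2.11 after restimulation (adjusted p = 0.000974, edgeR) and -4.68 after co-culture (adjusted p = 0.00723, edgeR). In the list of 12 nitric oxide and cyclic GMP genes, drawn up after the set was known, 1 of 4 tested was called higher and 2 lower after restimulation (median 0.35), and 2 of 6 higher and 2 lower after co-culture (median 0.87, edgeR). Both called lower in each state were the cyclase subunits, of which Gucy1a1 was chosen as lower by the rule. Pde1b, a phosphodiesterase that breaks down cyclic nucleotides, had log2 fold changes of 2.82 after restimulation (adjusted p = 2.99e-09) and 0.44 after co-culture (adjusted p = 0.145, edgeR).

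Proteins of mitosis and DNA repair made up the largest role, with 10 of the 35 genes. Cip2a (an inhibitor of a protein phosphatase that also tethers broken chromosomes in mitosis), Cenpi and Cenpu (centromere proteins), Ska1 (a link of kinetochores to microtubules), Cdc25c (a phosphatase that starts mitosis) and Aunip (a partner of aurora kinase A) act in cell division. Gen1 cuts recombination intermediates, Fancb belongs to the Fanconi core complex for crosslink repair, Pif1 is a DNA helicase, and H2bc24 encodes a histone H2B. Cip2a had 52.6, 61.4 and 55.5 CPM in ATRA libraries and 265, 241 and 246 CPM in CTRL libraries after restimulation. After co-culture Cip2a had 63.5, 55.9 and 17.6 CPM in ATRA libraries and 111, 165 and 160.2 CPM in CTRL libraries. ATRA co-culture replicate 3 was the low library of Cip2a, and the other co-culture ATRA libraries lay below all CTRL libraries, as the rule requires. Gen1 had 20.95, 22.7 and 18.6 CPM in ATRA libraries and 137, 111 and 124 CPM in CTRL libraries after restimulation. After co-culture Gen1 had 25.6, 23.6 and 2.84 CPM in ATRA libraries and 52.7, 61.97 and 62.5 CPM in CTRL libraries, again with replicate 3 far below the others. H2bc24 had 28.9, 27.05 and 28.6 CPM in ATRA libraries and 102, 108 and 84.6 CPM in CTRL libraries after restimulation. After co-culture H2bc24 had 22.6, 20.2 and 40.2 CPM in ATRA libraries and 103, 108 and 102 CPM in CTRL libraries, and here replicate 3 was the highest ATRA library. Reads of H2bc24 are uncertain, since the replication histones are near-identical copies.

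Aunip had 2.28, 2.35 and 2.49 CPM in ATRA libraries and 30.4, 25.4 and 24.1 CPM in CTRL libraries after restimulation. After co-culture Aunip had 7.48, 5.26 and 1.15 CPM in ATRA libraries and 10.9, 15.98 and 16.1 CPM in CTRL libraries. Pif1 had 2.56, 1.25 and 1.19 CPM in ATRA libraries and 15.4, 16.8 and 14.4 CPM in CTRL libraries after restimulation. For both genes the restimulated groups were wide apart, and the co-culture groups were closer without overlapping. After co-culture Pif1 had 3.42, 2.29 and 1.23 CPM in ATRA libraries and 6.51, 8.34 and 9.03 CPM in CTRL libraries. Cenpi, Cdc25c, Fancb, Cenpu and Ska1 ranged from 3.73 to 18.2 CPM in ATRA and from 20.1 to 105 CPM in CTRL cells after restimulation, and from 1.38 to 21.2 CPM in ATRA and from 13.2 to 56.2 CPM in CTRL cells after co-culture. The log2 differences of the 10 genes ranged from -3.24 to -1.78 after restimulation (median -2.34) and from -1.90 to -1.51 after co-culture (median -1.67). The mitosis and repair genes thus sat close to the threshold after co-culture, and all of them but H2bc24 leave the set without ATRA co-culture replicate 3. Within batches, Cdc25c had the smallest co-culture difference of the whole set, -0.45 in batch 1.

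Of 50 centromere, kinetochore and mitotic kinase genes, a list drawn up after the set was known, 49 were called lower and 0 higher in restimulated ATRA cells (median log2 fold change -2.11), and 14 lower and 0 higher in co-culture ATRA cells (median -0.94, edgeR). At an unadjusted p under 0.05 the counts were 49 lower and 0 higher after restimulation, and 29 lower and 0 higher after co-culture. Bub1b, Bub1 and Ttk, kinases of the spindle checkpoint, had log2 fold changes of -2.80 (adjusted p = 1.93e-10), -2.60 (adjusted p = 2.18e-10) and -2.84 (adjusted p = 2.39e-10, edgeR) after restimulation. After co-culture they had -0.83 (adjusted p = 0.139), -0.83 (adjusted p = 0.183) and -1.05 (adjusted p = 0.0751, edgeR) in the same order. Of 31 crosslink repair, helicase and nuclease genes, also listed afterwards, 27 were called lower and 2 higher after restimulation (median -2.26), and 6 lower and 1 higher after co-culture (median -0.87, edgeR). The 6 lower after co-culture are near the 15.5% of all tested genes, whereas 30.8% of all tested genes were lower after restimulation. Genes of the set that stand in these lists were chosen for lower levels in both states. The lower counts of both lists thus restate that choice in part. Fancd2 and Bard1 of that list had log2 fold changes of -2.63 (adjusted p = 1.52e-10) and -2.61 (adjusted p = 2.37e-10, edgeR) after restimulation, and -1.03 (adjusted p = 0.146) and -0.84 (adjusted p = 0.111, edgeR) after co-culture, in the same order.

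The windows of Cip2a at chr16:48993938-48994237 (+ strand) and Fancb at chrX:164980342-164980641 (+ strand) are shown for the E2F site, a mark of cell cycle promoters, which was found in 4 of 24 genes of the set (Tns1, Fancb, Cip2a and Ptprk), against 5.29% of all genes with a window. Capitals again mark any of the 7 motifs, in the RefSeq sequence of GRCm38.p6.
Cip2a: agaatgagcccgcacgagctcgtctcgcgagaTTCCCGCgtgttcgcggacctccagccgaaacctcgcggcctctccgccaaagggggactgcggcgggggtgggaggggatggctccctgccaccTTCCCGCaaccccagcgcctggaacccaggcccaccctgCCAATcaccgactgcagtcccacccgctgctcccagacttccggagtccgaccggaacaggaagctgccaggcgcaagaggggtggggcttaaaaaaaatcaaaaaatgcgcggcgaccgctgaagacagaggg
Fancb: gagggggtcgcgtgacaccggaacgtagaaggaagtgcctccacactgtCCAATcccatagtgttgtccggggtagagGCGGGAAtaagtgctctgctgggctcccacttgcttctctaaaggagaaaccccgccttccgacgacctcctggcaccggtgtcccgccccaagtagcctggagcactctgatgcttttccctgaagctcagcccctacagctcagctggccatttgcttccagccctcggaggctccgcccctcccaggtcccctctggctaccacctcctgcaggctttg

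Both windows hold the E2F site and the CCAAT box. Cenpi and Cenpu have a CCAAT box without the E2F letters, and the windows of Aunip and Gen1 hold neither, which says only that these letters are not in these windows.

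The other members were Ifi211, an interferon-inducible PYHIN protein, Cfap91, a protein of cilia and flagella, Slc9b2, a sodium/proton exchanger, Gemin6, a part of the complex that assembles spliceosomal particles, and Mt3, a metal-binding metallothionein. Ifi211 had 1.56, 0.730 and 2.14 CPM in ATRA libraries and 12.8, 8.78 and 7.24 CPM in CTRL libraries after restimulation. After co-culture Ifi211 had 6.12, 5.43 and 0.807 CPM in ATRA libraries and 86.9, 23.1 and 29.6 CPM in CTRL libraries, where CTRL replicate 1 was far above the other CTRL libraries. Without that library the fitted co-culture log2 fold change was -2.60, against -3.49 with it (edgeR), and PYHIN genes are near copies whose reads may be shared. Cfap91 had 0.390, 0.0521 and 0 CPM in ATRA libraries and 14.99, 13.02 and 8.58 CPM in CTRL libraries after restimulation, with 7, 1 and 0 counts in ATRA libraries. Its restimulated ATRA level was 1.15% of the CTRL level summed over libraries (95% interval for counting error 0.496% to 2.29%, exact binomial). After co-culture Cfap91 had 10.8, 10.1 and 0.115 CPM in ATRA libraries and 17.2, 24.3 and 20.8 CPM in CTRL libraries, so its place in the set after co-culture rests on ATRA replicate 3, which had 3 counts. Slc9b2 averaged 2.16 ± 0.199 CPM in ATRA cells and 10.8 ± 2.38 CPM in CTRL cells after restimulation (SD, n = 3), and 5.30 ± 1.35 CPM in ATRA cells and 19.7 ± 5.07 CPM in CTRL cells after co-culture. Gemin6 averaged 4.90 ± 0.737 CPM in ATRA cells and 17.4 ± 1.87 CPM in CTRL cells after restimulation, and 4.21 ± 2.14 CPM in ATRA cells and 14.7 ± 3.34 CPM in CTRL cells after co-culture. Mt3 averaged 16.4 ± 2.66 CPM in ATRA cells and 49.8 ± 16.6 CPM in CTRL cells after restimulation, and 15.5 ± 4.74 CPM in ATRA cells and 48.9 ± 10.8 CPM in CTRL cells after co-culture. The libraries of the states overlapped for Gemin6 and Mt3 under each treatment, and the ATRA and CTRL libraries of each state did not. In a list of 13 PYHIN genes, drawn up after the set was known, 3 of 10 tested were called lower and 1 higher after restimulation (median log2 fold change -2.14, edgeR). The lower count is near the share of all tested genes. Of these, 30.8% were lower and 31.8% higher after restimulation, and 15.5% lower and 18.1% higher after co-culture. Among the PYHIN genes, 1 was called lower and 0 higher after co-culture (median 0.18), with the same counts at an unadjusted p under 0.05. A gene of the set in this list was chosen as lower, so nothing is read from the lower calls. Of the 4 metallothioneins, also listed afterwards, Mt1 had log2 fold changes of -2.07 after restimulation and 1.17 after co-culture (edgeR). Mt2 had -0.15 and 1.08 in the same order (edgeR). Of Mt1, Mt2 and Mt3, Mt3 was thus the one with a lower level in ATRA cells of both states.

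On a scale per transcript length (TPM, deposited for the restimulated libraries), the most abundant genes of the set in CTRL cells were Mt3, Cip2a, H2bc24 and Il18r1. Mt3 averaged 70.7 ± 10.6 TPM in ATRA cells and 179 ± 43.4 TPM in CTRL cells (SD, n = 3). Cip2a averaged 32.5 ± 1.16 TPM in ATRA cells and 174 ± 24.98 TPM in CTRL cells, H2bc24 36.5 ± 1.02 TPM in ATRA cells and 130.0 ± 19.2 TPM in CTRL cells, and Il18r1 2.26 ± 0.0938 TPM in ATRA cells and 116 ± 11.4 TPM in CTRL cells. The lowest in CTRL cells were Chl1 with 0.00852 ± 0.0148 TPM in ATRA cells and 3.44 ± 0.617 TPM in CTRL cells, and Gucy1a1 with 0.0992 ± 0.0654 TPM in ATRA cells and 3.65 ± 2.35 TPM in CTRL cells. In ATRA cells Mt3, H2bc24 and Cip2a kept the first places, while Il18r1 stood below Fads2. On this scale the ATRA columns did not overlap the CTRL columns for any of the 35 genes. Of these, 34 had a log2 difference of at most -1.5 with 0.5 TPM added (median -2.25), and Mt3 had -1.33. The restimulated libraries were also used to choose the genes, so this is no separate support.

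The change of the 35 genes with restimulation, within each treatment, was not itself a criterion of the rule. The rule did use the levels of all 12 libraries, with a floor on the CTRL level, a limit on the ATRA level relative to CTRL and no overlap in each state, so these tests run on selected values and describe the 35 genes. They were made with edgeR's quasi-likelihood test on all 12 libraries and the shared symbols. The 4 groups shared a common estimate of spread, so the spread under either treatment enters the tests of both. In ATRA cells 6 of 35 genes (17.1%) were called higher and 14 (40.0%) lower in restimulated than in co-culture libraries, where 29.8% and 31.5% of all 12364 tested genes were. In CTRL cells 2 of 35 (5.70%) were called higher and 13 (37.1%) lower, where 15.9% and 16.6% of all tested genes were. The median log2 fold change of the 35 genes was -0.28 in ATRA cells and -0.13 in CTRL cells, against -0.03 and 0.02 over all tested genes. The floor of the rule keeps out genes whose CTRL level fell under 5 CPM in either state. Under both treatments 8 genes were called lower: Chl1, Fads2, Gucy1a1, Idi1, Lrfn1, Ptprk, Slc9b2 and Tns1. Exph5 and Il1rl1 were called in opposite directions, and the ATRA call of Exph5 ended in several fits that left out 1 library. Without ATRA co-culture replicate 3, ATRA cells had 6 genes called higher and 18 lower. Without that library and CTRL co-culture replicate 1, a choice made after seeing the data, ATRA cells had 6 called higher and 19 lower, and CTRL cells 11 higher and 15 lower.

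**Figure D5:**
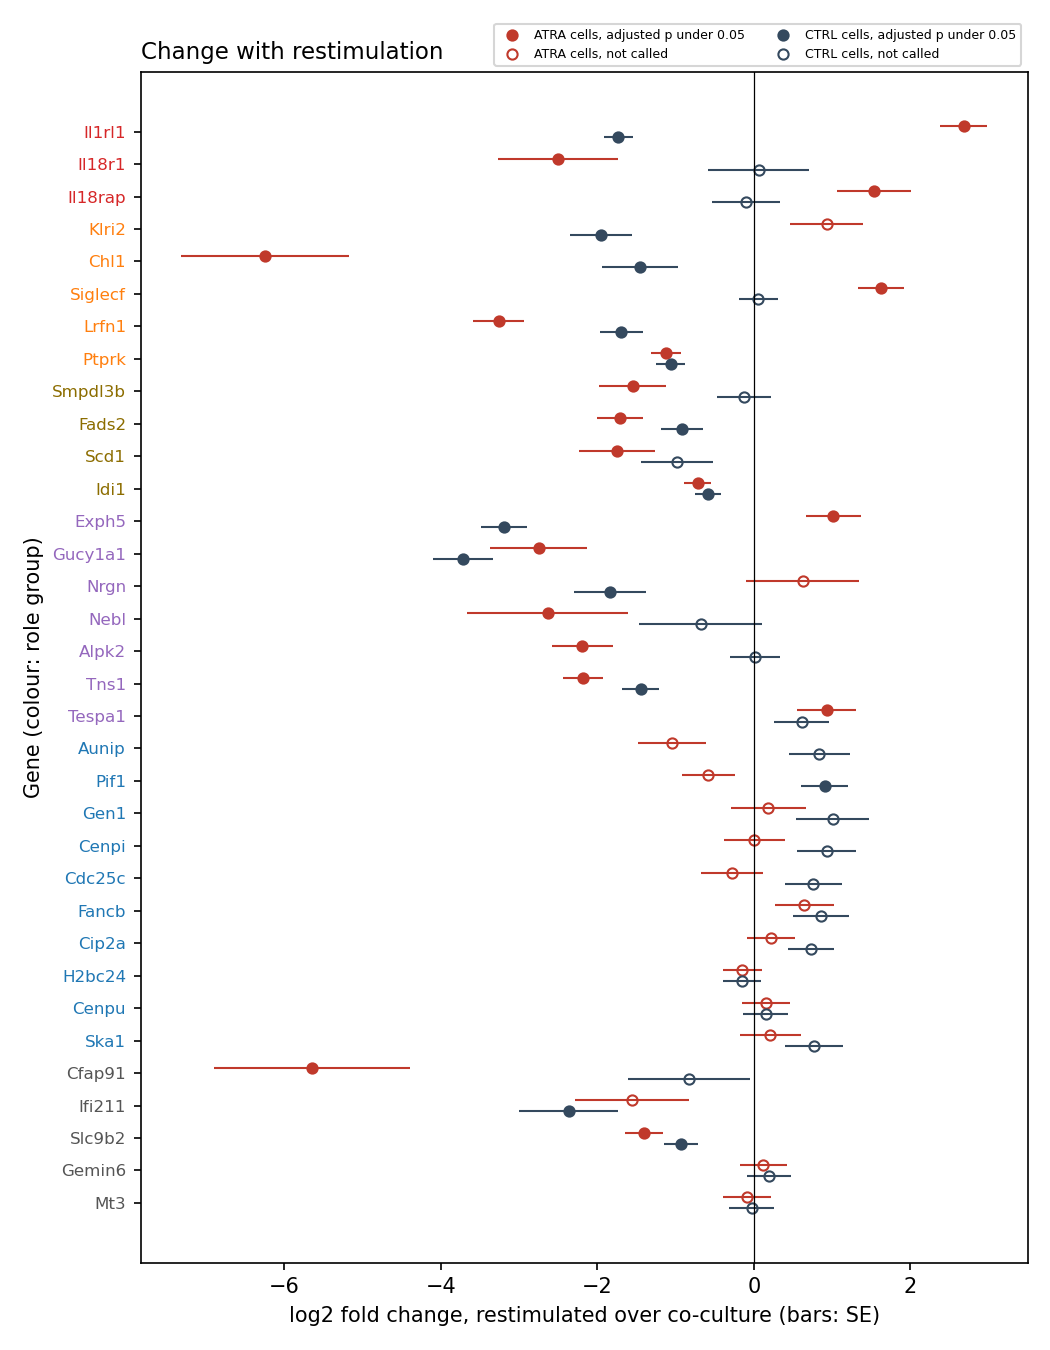
Log2 fold change of restimulated over co-culture libraries for 34 of the 35 genes in ATRA cells (red, upper point of each gene) and CTRL cells (dark blue, lower point), with bars of 1 SE; filled points have an edgeR adjusted p under 0.05. The ATRA and CTRL points of Il1rl1 (2.68 and -1.73) and Exph5 (1.02 and -3.19) lie on opposite sides of 0, and the mitosis genes lie between -1.05 and 0.65 in ATRA cells.

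The fitted changes of the receptor chains with restimulation were not alike. Il1rl1 rose in ATRA cells (log2 fold change 2.68, SE 0.30, adjusted p = 1.12e-05, edgeR) and fell in CTRL cells (log2 fold change -1.73, SE 0.19, adjusted p = 3.18e-05, edgeR), and the restimulated ATRA libraries at 1.89 to 2.73 CPM were still under the restimulated CTRL libraries at 14.9 to 21.97 CPM. Il18rap rose in ATRA cells (log2 fold change 1.54, SE 0.48, adjusted p = 0.0148, edgeR), and its value in CTRL cells was -0.10, SE 0.44 (adjusted p = 0.881). Il18r1 was called lower in ATRA cells (log2 fold change -2.50, SE 0.77, adjusted p = 0.0144, edgeR), and its value in CTRL cells was 0.06, SE 0.65 (adjusted p = 0.951). The fitted values of the IL-18 receptor chains in ATRA cells thus had opposite signs. For Il18r1 the co-culture ATRA libraries (31.8, 25.7 and 0.807 CPM) lay on both sides of the restimulated ones (3.51, 3.49 and 3.78 CPM). The call of Il18r1 ended without ATRA co-culture replicate 1 or restimulated ATRA replicate 2 (edgeR adjusted p = 0.0527 to 0.0872).

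Of the surface genes, Siglecf rose in ATRA cells (log2 fold change 1.62, SE 0.29, adjusted p = 0.000459, edgeR), with a value of 0.06, SE 0.25 in CTRL cells (adjusted p = 0.879). Klri2 fell in CTRL cells (log2 fold change -1.96, SE 0.40, adjusted p = 0.00309, edgeR), and its value in ATRA cells was 0.93, SE 0.47 (adjusted p = 0.102). Lrfn1 fell in ATRA cells (log2 fold change -3.26, SE 0.33, adjusted p = 4.88e-06, edgeR) and in CTRL cells (log2 fold change -1.70, SE 0.27, adjusted p = 0.000592, edgeR), as did Ptprk, by 1.12 in ATRA cells (adjusted p = 0.000288) and by 1.06 in CTRL cells (adjusted p = 0.000966, edgeR). Chl1 was called lower in both, and its restimulated ATRA level was 1.05% of the co-culture ATRA level (95% interval for counting error 0.0264% to 5.97%, exact binomial). In CTRL cells Chl1 had -1.46, SE 0.48 (adjusted p = 0.0370, edgeR), a call that ended when any 1 of the 6 CTRL libraries was left out (adjusted p = 0.0648 to 0.120).

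All 4 lipid enzymes fell with restimulation in ATRA cells. Fads2 had -1.71, SE 0.29 (adjusted p = 0.000371), Scd1 -1.75, SE 0.49 (adjusted p = 0.00846), Smpdl3b -1.55, SE 0.43 (adjusted p = 0.00776) and Idi1 -0.72, SE 0.17 (adjusted p = 0.00313), as log2 fold changes in edgeR. The call of Scd1 ended without ATRA co-culture replicate 3, the library in which it was highest (log2 fold change -0.84, adjusted p = 0.0645, edgeR). In CTRL cells Fads2 (log2 fold change -0.92, SE 0.27, adjusted p = 0.0226, edgeR) and Idi1 (log2 fold change -0.58, SE 0.17, adjusted p = 0.0185, edgeR) fell, and Scd1 had -0.98, SE 0.46 (adjusted p = 0.128) and Smpdl3b -0.13, SE 0.35 (adjusted p = 0.806). The CTRL call of Fads2 ended without CTRL co-culture replicate 2 or 3 or restimulated CTRL replicate 3 (adjusted p = 0.0656 to 0.0767), and that of Idi1 without co-culture or restimulated CTRL replicate 2 (adjusted p = 0.0561 to 0.0709, edgeR). In the list of sterol and fatty acid synthesis genes, 19 of 27 were called lower and 2 higher with restimulation in ATRA cells (median -0.80), and 13 lower and 1 higher in CTRL cells (median -0.58, edgeR). Of all tested genes, 31.5% were lower and 29.8% higher in ATRA cells, and 16.6% lower and 15.9% higher in CTRL cells.

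Among the signalling genes, Exph5 fell in CTRL cells (log2 fold change -3.19, SE 0.29, adjusted p = 1.05e-05, edgeR) and was called higher in ATRA cells (log2 fold change 1.02, SE 0.35, adjusted p = 0.0254, edgeR). The ATRA call of Exph5 ended without ATRA co-culture replicate 2 or 3 or restimulated ATRA replicate 1 or 2 (adjusted p up to 0.223, edgeR). Gucy1a1 fell in both, with the largest CTRL decrease of the set (log2 fold change -3.71, SE 0.39, adjusted p = 2.91e-05, edgeR) and -2.75, SE 0.62 in ATRA cells (adjusted p = 0.00237, edgeR). Tns1 fell in ATRA cells (log2 fold change -2.18, SE 0.26, adjusted p = 1.80e-05, edgeR) and in CTRL cells (log2 fold change -1.45, SE 0.24, adjusted p = 0.000757, edgeR). Nrgn fell in CTRL cells (log2 fold change -1.84, SE 0.46, adjusted p = 0.0105, edgeR), and its value in ATRA cells, which rests on few counts, was 0.63, SE 0.72 (adjusted p = 0.470), and -0.20 without restimulated ATRA replicate 1 (edgeR adjusted p = 0.846). Alpk2 fell in ATRA cells (log2 fold change -2.19, SE 0.39, adjusted p = 0.000438, edgeR), and its value in CTRL cells was 0.01, SE 0.32 (adjusted p = 0.981). Nebl (log2 fold change -2.64, SE 1.03, adjusted p = 0.0425) was called lower and Tespa1 (log2 fold change 0.93, SE 0.38, adjusted p = 0.0482) higher in ATRA cells (edgeR), and both calls ended under the replicate block and under several other alternatives (adjusted p up to 0.170 for Nebl and 0.150 for Tespa1).

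None of the 10 mitosis and repair genes was called in ATRA cells (median log2 fold change 0.08, lowest adjusted p = 0.0562 for Aunip), and 1, Pif1, was called in CTRL cells (log2 fold change 0.91, SE 0.30, adjusted p = 0.0361, edgeR). At an unadjusted p under 0.05, 1 of the 10 was lower in ATRA cells and 4 were higher in CTRL cells, and DESeq2 called 1 lower in ATRA cells and 3 higher in CTRL cells. The Pif1 call ended when any 1 of the 6 CTRL libraries was left out (adjusted p = 0.0663 to 0.104). The values of the 10 genes in CTRL cells ranged from -0.15 to 1.01 (median 0.80). A gene not called is not shown to be unchanged, and the spread of all 12 libraries enters the CTRL tests. For Gen1, restimulated CTRL libraries (111 to 137 CPM) lay above co-culture CTRL libraries (52.7 to 62.5 CPM). The same held for Cip2a, Aunip, Cenpi, Cdc25c, Fancb, Ska1 and Pif1, whereas the CTRL libraries of Cenpu and H2bc24 overlapped. Without ATRA co-culture replicate 3 and CTRL co-culture replicate 1, 5 of the 10 were called lower (Aunip, Cdc25c, Cenpi, Gen1 and Pif1) and H2bc24 higher in ATRA cells, and 8 were called higher in CTRL cells (Aunip, Cdc25c, Cenpi, Cip2a, Fancb, Gen1, Pif1 and Ska1). Without ATRA co-culture replicate 3 alone, 4 were called lower (Aunip, Cdc25c, Gen1 and Pif1) and H2bc24 higher in ATRA cells. Without CTRL co-culture replicate 1 alone, 0 were called in CTRL cells (1 higher and 0 lower at an unadjusted p under 0.05, edgeR). Leaving out that library alone thus does not give the 8 calls. The CTRL change was not fitted without ATRA co-culture replicate 3 alone. In the list of 50 centromere and kinetochore genes, 15 were called lower and 2 higher in ATRA cells (median -0.49), and 12 higher and 0 lower in CTRL cells (median 0.68, edgeR; 31 higher and 0 lower at an unadjusted p under 0.05), where 31.5% of all tested genes were lower and 29.8% higher in ATRA cells, and 15.9% higher and 16.6% lower in CTRL cells. Of the remaining genes, Slc9b2 fell in ATRA cells (log2 fold change -1.41, SE 0.24, adjusted p = 0.000314, edgeR) and in CTRL cells (log2 fold change -0.93, SE 0.22, adjusted p = 0.00693, edgeR). Ifi211 fell in CTRL cells (log2 fold change -2.37, SE 0.63, adjusted p = 0.0139, edgeR), a call that ended without co-culture CTRL replicate 1 or restimulated CTRL replicate 2 (adjusted p = 0.0521 to 0.0651). Cfap91 was called lower in ATRA cells (adjusted p = 0.00209, edgeR), where its level was 2.04% of the co-culture level (95% interval for counting error 0.874% to 4.04%, exact binomial). Gemin6 had 0.12, SE 0.30 in ATRA and 0.19, SE 0.28 in CTRL cells, and Mt3 had -0.09, SE 0.30 in ATRA and -0.03, SE 0.29 in CTRL cells, neither called.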

How the data were processed

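RNA was measured in 12 libraries, 3 for each treatment in each state; titles gave the group and the replicate number. The authors deposited whole-number counts per gene symbol, 1 table for each state (35588 rows after restimulation, 13948 after co-culture, smallest row sum there 10), and TPM for the restimulated libraries, with column names that show the treatment only. The submitters' processing notes name STAR 2.7.11b, Salmon 1.10.3, cutadapt 5.0 and DESeq2 1.42.1 and the build mm39, without their roles; the sources used here give neither strand setting nor annotation. Per the labels' protocols the kit was stranded total RNA.

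CPM was computed from library totals, and the rule was applied to means. The members and the gene lists were chosen with earlier results of these data known. Counts were tested with edgeR 4.0.16 (TMM, filterByExpr, robust quasi-likelihood, Benjamini-Hochberg over all tested genes) in R 4.3.3: ATRA against CTRL on the 6 libraries of each state, and state within each treatment on all 12 libraries and 13625 shared symbols. Symbols repeated in the restimulated table (32) kept the row with the largest total. The scripts were tested on simulated data. Alternatives were DESeq2 1.42.0, its size factors, no filter, a replicate block and leaving out libraries. Genes named with values in every library were the 16 lowest by mean log2 difference, the 8 highest in CTRL, those in fixed lists and the 5 largest called CTRL changes with state in each direction.

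No 2 libraries of a group agreed within sampling noise (smallest chi-square per degree of freedom 3.81). Because the labels give same-numbered ATRA and CTRL libraries a shared batch, the numbers pair them; the correlation of their deviations from the group mean was -0.03, -0.10 and 0.06 after restimulation and 0.10, -0.05 and 0.06 after co-culture. Promoter windows are RefSeq GRCm38.p6, matched by symbol, and no coordinate of build mm39 is given. A gene of the set is in all counts and medians, and its own values are not reported here; the same holds for a few listed genes.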

Additional observations from a re-analysis of the deposited data

Results flagged for a closer look

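For 2 genes of the set, the states did not overlap under either treatment and the change with restimulation went in opposite directions in ATRA and CTRL cells. Other genes had fitted values of opposite sign without meeting this criterion. Examples are Klri2 (log2 fold change 0.93 in ATRA and -1.96 in CTRL cells) and Aunip (-1.05 in ATRA and 0.84 in CTRL cells, edgeR). Every restimulated ATRA library of Exph5 (3.48 to 4.18 CPM) was above every co-culture ATRA library (0.999 to 2.62 CPM), and every restimulated CTRL library (15.4 to 36.4 CPM) was below every co-culture CTRL library (233 to 253 CPM). Its log2 ATRA difference after restimulation was 4.05 above that after co-culture. Il1rl1 showed the same pattern, with 1.89 to 2.73 CPM in restimulated ATRA and 0.192 to 0.398 CPM in co-culture ATRA libraries, and with 14.9 to 21.97 CPM in restimulated CTRL and 54.9 to 70.4 CPM in co-culture CTRL libraries. Its log2 ATRA difference after restimulation was 3.37 above that after co-culture. The edgeR call of Exph5 in ATRA cells ended without ATRA co-culture replicate 2 or 3 or restimulated ATRA replicate 1 or 2. Neither difference between the treatments was tested, since it is built from the contrasts that chose the genes, and state cannot be told apart from table, depth and batch set; both also depend on the state labels of the CTRL libraries.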

How the results depend on the processing

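The set itself held 35 genes, and 201 at a threshold of -1, 11 at -2 and 11 when every same-numbered pair had to pass (replicate block). Leaving out 1 library gave 21 to 93 genes, lowest without ATRA co-culture replicate 3 and highest without ATRA co-culture replicate 1. TMM scaling (30), a pseudocount of 0.1 (37) or 1 (29), a floor of 10 (28) or 1 (47) CPM and TPM for the restimulated libraries (31, added after seeing the data) stayed within 1.5 times. Genes called after co-culture (4071) numbered 1613 to 5617 without 1 library, 2892 with the replicate block and 7980 without CTRL replicate 1 and ATRA replicate 3 (added after seeing the data). Genes of the set called lower there (30) numbered 19 to 34 without 1 library and 28 with the block, which ended the calls of Cenpi, Cdc25c and Ska1. After restimulation all 35 stayed called in every alternative, and the block left 7751 of 7998 called genes. Genes of the set called higher with state in CTRL cells (2) numbered 4 with DESeq2, 11 without the libraries named above and 0 to 1 without 1 library; the cause was not tested. The block gave 5 higher and 13 lower of the set in ATRA cells and 2 higher and 13 lower in CTRL cells; it changed no other call than those of Nebl and Tespa1. No fold change of a called gene reversed in the alternatives run. Library totals of 16288111 or more put 3 counts at 0.184 CPM or less, which limits Chl1, Cfap91, Nrgn, Nebl and Gucy1a1 in ATRA cells.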
